A study of Mus musculus with 77 samples.

Results

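The comparison described here is that of chow reversal with vehicle after 8 weeks in a mouse model of metabolic dysfunction-associated steatohepatitis (MASH), read from liver RNA sequencing. Its members were taken by their treatment labels, 7 chow reversal mice and 9 vehicle mice, which together made up 16 of the 77 libraries analysed, each from 1 mouse. All were male C57BL/6JRj mice that were 5 to 6 weeks old when they were put on the Gubra Amylin NASH diet (40 kcal-% fat, 22% fructose, 10% sucrose and 2% cholesterol). The paper's methods give 34 weeks on this diet, but its reporting summary gives an age of about 34 weeks at treatment start. The time on the diet before treatment is therefore uncertain. The mice had a liver biopsy 4 weeks before treatment and were included on the steatosis and fibrosis seen in it. The chow reversal mice were then moved to regular chow and the vehicle mice stayed on the MASH diet, while both were given vehicle under the skin once daily for 8 weeks. Further groups served for comparison: 7 mice kept on the MASH diet and given semaglutide, a GLP-1 receptor agonist, at 123 µg per kg for 8 weeks, chow reversal and vehicle mice killed at 16 or 24 weeks, and 7 mice that ate chow throughout, were given vehicle and were killed at 24 weeks (lifelong chow). The question put to the comparison is which liver genes had changed early after the diet itself was taken away.

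Cholesterol in the liver is sensed by proteins of the endoplasmic reticulum. When it is scarce, the transcription factor SREBP2 is released and switches on the enzymes of cholesterol synthesis, and when it is plentiful, oxysterols instead activate the LXR receptors, which drive cholesterol export. In MASH, fat-laden and injured hepatocytes are surrounded by macrophages that take up lipid and by activated stellate cells that lay down collagen.

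Total estimated counts were 8907160 to 17320026 per library in chow reversal mice (median 16525339) and 12058931 to 37631125 in vehicle mice (median 16872478). On the first principal component of all libraries, which held 29.8% of the variance, the chow reversal mice lay between −25.6 and −8.08 and the vehicle mice between 14.6 and 31.3, with no overlap. Semaglutide mice lay between −8.01 and 17.7 and lifelong chow mice between −49.2 and −26.6. Liver tissue was checked by 12 hepatocyte markers, all measured, whose summed level was 135000 to 183000 CPM (read counts scaled by library size and TMM factors) in chow reversal mice against 81500 to 105000 CPM in vehicle mice. Of 8 adipocyte markers, Adipoq, Lep, Plin1 and Retn were too low to be tested, as were 8 of 10 markers of exocrine pancreas and 7 of 8 of skeletal muscle. The other 4 adipocyte markers summed to 1670 to 2620 CPM in chow reversal mice and 820 to 1400 CPM in vehicle mice, most of it Pck1, a gluconeogenic gene that hepatocytes also express, which rose by 0.99 (adjusted p = 0.00149), while Fabp4 fell by 1.18 (adjusted p = 0.00883). The library number of vehicle replicate 7 holds a place that a chow reversal library holds in the other sets of numbers. It lay at 31.3 on the first component, among the vehicle mice, and without it 1879 genes were higher and 2210 lower at 8 weeks. Among the lifelong chow mice, replicate 5 stood apart (−26.6 on the first component, and 142 CPM of the acute phase gene Lcn2 against 1.28 to 4.77 CPM in the others), so results that rest on it are also given without it. In whole liver, fewer cells of a type and less RNA per cell cannot be told apart.

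Between chow reversal and vehicle at 8 weeks, 4782 of 14904 genes tested (32.1%) passed an adjusted p of 0.05 in edgeR's quasi-likelihood test with Benjamini-Hochberg adjustment, 2117 higher (14.2%) and 2665 lower (17.9%). A change of at least 2-fold was seen in 280 of the genes that rose and in 975 of those that fell. In 1653 genes (11.1%) every chow reversal mouse lay outside the range of the vehicle mice, 675 above it (4.53%) and 978 below it (6.56%). The median log2 fold change of all genes was −0.03. When libraries were scaled to their totals alone, this median was −0.31 and the split was 667 higher and 5936 lower, so that small rises depended on the scaling, and the values below are relative to the TMM scale. In the plot of list members, the pathway list whose median lay farthest to the right was cholesterol synthesis and uptake, and the one farthest to the left was cell division, while single genes of other lists lay farther left.

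**Figure D1:**
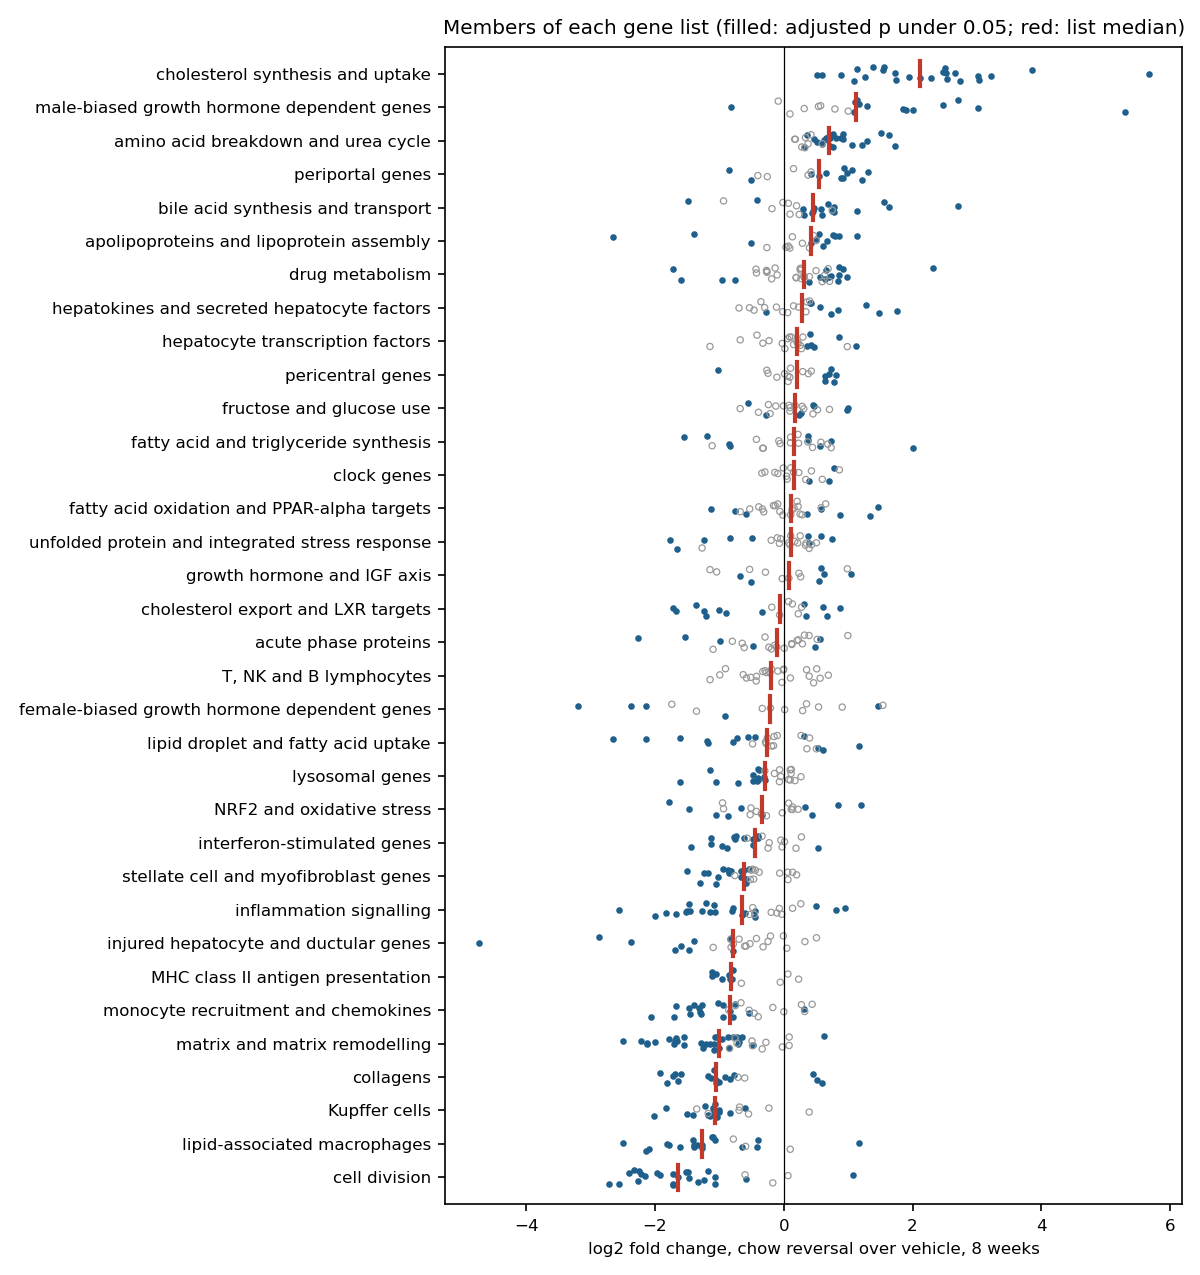
Each point is a gene of the list named on the left, at its log2 fold change in chow reversal over vehicle mice at 8 weeks, filled where the adjusted p was under 0.05; the red bar is the list's median. The list of cholesterol synthesis and uptake had the highest median (2.12) and cell division the lowest (−1.64), against −0.03 over all genes.

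All 25 genes of cholesterol synthesis and uptake rose in chow reversal mice (25 of 25, against 14.2% of all genes), with a median log2 fold change of 2.12, and in 24 of them every chow reversal mouse was above every vehicle mouse. Scaled to library totals, 24 of the 25 still passed. In the mevalonate part of the pathway, Hmgcs1, the synthase that makes HMG-CoA, had 505 to 789 CPM (median 614) in chow reversal mice and 79.9 to 138 CPM (median 114) in vehicle mice. The groups did not overlap, and the log2 fold change was 2.52 ± 0.18 (SE, adjusted p = 3.67e-19). Mvd, which makes isopentenyl diphosphate, had 38.8 to 74.6 CPM (median 55.8) in chow reversal mice, against 2.74 to 9.28 CPM (median 5.74) in vehicle mice. Idi1, which isomerises that product, had 259 to 391 CPM (median 341) in chow reversal mice and 10.4 to 38.5 CPM (median 24.1) in vehicle mice, a log2 fold change of 3.85 ± 0.26 (adjusted p = 4.13e-20).

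Sqle had the largest rise of the list. It encodes squalene epoxidase, the enzyme that commits squalene to sterols, and its gene spans chr15:59315077-59331192 (GRCm38). Its level was 86.7 to 131 CPM (median 100.1) in chow reversal mice and 0.492 to 4.14 CPM (median 1.73) in vehicle mice, so that the lowest chow reversal mouse was far above the highest vehicle mouse (log2 fold change 5.67 ± 0.36, adjusted p = 1.12e-21). Before this step in the pathway, Fdft1, the squalene synthase, rose by 2.28 ± 0.12 (adjusted p = 3.06e-26), with 197 to 296 CPM in chow reversal mice and 42.1 to 61.8 CPM in vehicle mice. After it, the lanosterol demethylase Cyp51 had 209 to 291 CPM (median 249.6) in chow reversal mice against 15.3 to 48.5 CPM (median 31.1) in vehicle mice. Neither overlapped between groups, and nor did Msmo1, a sterol oxidase, at 250.1 to 332 CPM in chow reversal mice against 18.9 to 51.9 CPM in vehicle mice (3.02 ± 0.18, adjusted p = 9.81e-23). Tm7sf2, a sterol reductase, had the smallest p of all genes (adjusted p = 2.63e-27), with 131 to 213 CPM in chow reversal and 21.7 to 34.3 CPM in vehicle mice. Dhcr7, which makes cholesterol itself in the last step, rose by 1.73 ± 0.22 (adjusted p = 4.12e-09).

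The regulators of the pathway rose as well. Srebf2, which encodes SREBP2, had 61.3 to 74.5 CPM (median 68.4) in chow reversal mice and 28.5 to 44.5 CPM (median 38.3) in vehicle mice, without overlap (0.88 ± 0.11, adjusted p = 7.82e-10). Insig1, which holds SREBP back in the endoplasmic reticulum and is itself a target of it, rose by 1.38 ± 0.25 (adjusted p = 1.14e-05).

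The promoter of 1 member is shown because a sterol regulatory element, the site that SREBP binds, can be read in it. Windows from 250 bases before to 50 bases after the start were taken from RefSeq (GRCm38.p6) and matched 17 of the 25 genes, and the letters TCACNCCAC were searched on both strands. They were found in Hmgcs1 alone of the 17, on the forward strand beginning 137 bases before the start, in the window chr13:119690101-119690400 on the + strand, where capitals mark them.
Hmgcs1: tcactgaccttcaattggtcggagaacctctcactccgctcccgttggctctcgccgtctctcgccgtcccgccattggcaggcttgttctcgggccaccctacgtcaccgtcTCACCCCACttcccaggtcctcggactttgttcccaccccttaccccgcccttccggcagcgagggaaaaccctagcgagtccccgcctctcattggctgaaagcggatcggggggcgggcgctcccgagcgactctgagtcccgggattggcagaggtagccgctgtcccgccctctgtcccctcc
Of all 32851 windows of this length, 408 (1.24%) held the letters, against 1 of 20 windows (5%) of the list. A match is a description of the sequence, and no reading of binding was made in these livers.

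**Figure D2:**
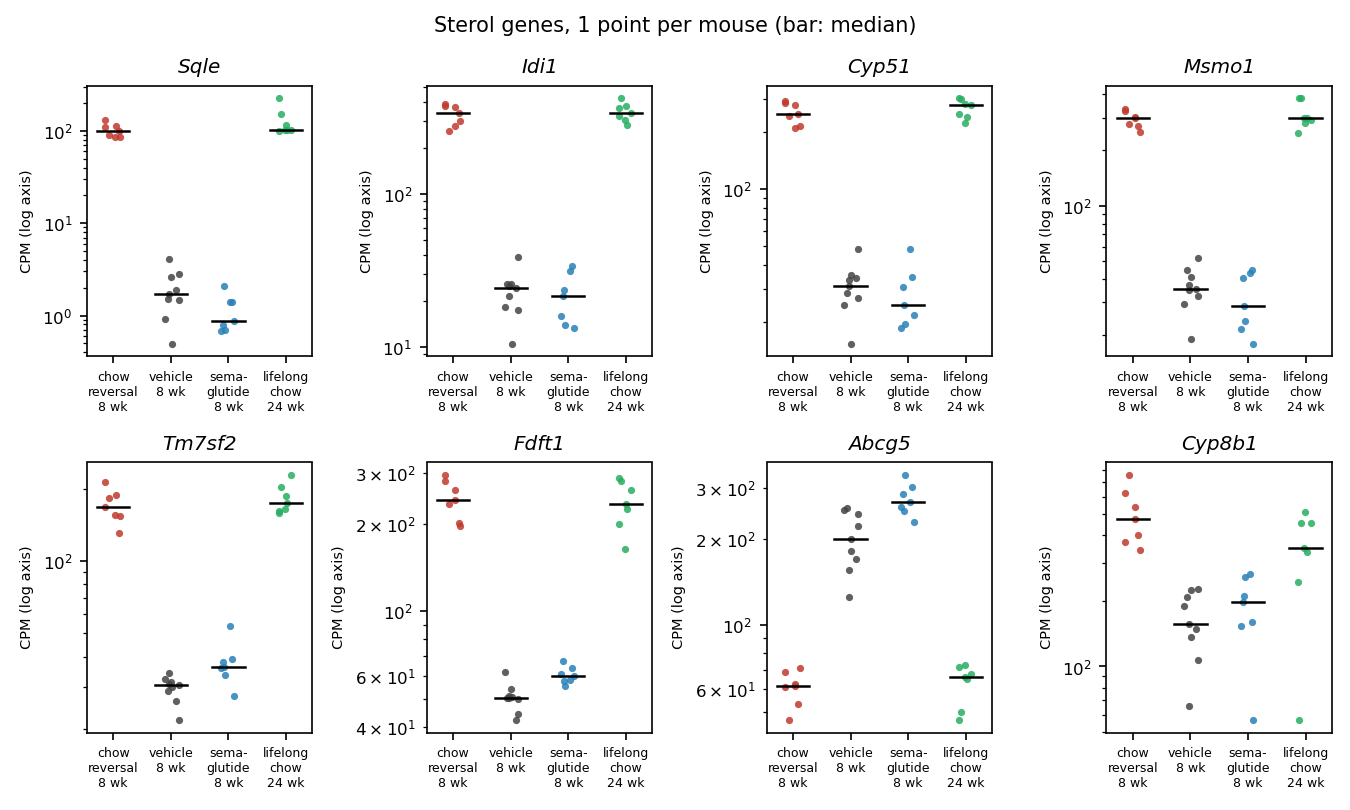
Levels in CPM (log axis) of 6 enzymes of cholesterol synthesis, of the sterol exporter Abcg5 and of the bile acid enzyme Cyp8b1, 1 point per mouse, with a bar at the median of chow reversal, vehicle and semaglutide mice at 8 weeks and of lifelong chow mice at 24 weeks. For the 6 enzymes the chow reversal mice lay above all vehicle mice, and for Abcg5 below them.

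Of 19 genes of cholesterol export and other LXR targets, 8 fell and 5 rose (68.4% called, against 32.1% of all genes), with a median of −0.06. The exporters were among those that fell. Abcg5 and Abcg8 form the pump that moves sterols into bile, and Abcg5 had 46.6 to 71 CPM (median 61.6) in chow reversal mice against 125 to 255 CPM (median 199) in vehicle mice (−1.73 ± 0.18, adjusted p = 9.92e-12). Abcg8 fell by 1.24 on the log2 scale (adjusted p = 4.74e-07). Abcg1 and Abca1, which load cholesterol onto lipoproteins, fell too, Abcg1 to 5.13 to 10.2 CPM in chow reversal mice, against 17 to 28.7 CPM in vehicle mice (−1.67 ± 0.19, adjusted p = 1.03e-10). In Abca1 the groups overlapped (68.3 to 138 CPM in chow reversal and 108 to 234 CPM in vehicle mice; −0.90 ± 0.21, adjusted p = 0.000584). Mylip, a ubiquitin ligase, fell by 1.0 (adjusted p = 2.21e-06), and Soat1, which esterifies cholesterol for storage, fell by 1.35 (adjusted p = 2.36e-07). The 5 that rose were Lcat, Pltp, Ces1f, Soat2 and Nr1h2, of which 2 passed when libraries were scaled to their totals.

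Bile acid genes mostly rose, 15 of 25 against 2 that fell (68% called, median 0.46). Only 8 of them passed higher when libraries were scaled to their totals. Cyp8b1, which sets the share of cholic acid, had 343 to 758 CPM (median 475) in chow reversal mice and 65.6 to 226 CPM (median 157) in vehicle mice, without overlap (1.63 ± 0.31, adjusted p = 3.27e-05). Slc10a1, the transporter that takes bile acids up from blood, had 452 to 706 CPM in chow reversal mice, against 132 to 263 CPM in vehicle mice (1.55 ± 0.19, adjusted p = 2.22e-09). Cyp27a1 of the alternative pathway rose by 0.78 ± 0.12 (adjusted p = 4.34e-07), as did Baat, which conjugates bile acids (0.59 ± 0.10, adjusted p = 2.41e-06). The rate-limiting enzyme of the classical pathway behaved otherwise: Cyp7a1 had 38.5 to 102 CPM in chow reversal mice and 22.7 to 134 CPM in vehicle mice and was not called (0.10 ± 0.46, adjusted p = 0.891). Slc51b, part of the exporter to blood, and Abcb4, the phospholipid pump, were the members that fell.

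For fat synthesis the picture was mixed. Of 24 genes 5 rose and 4 fell (37.5% called, near the 32.1% of all genes). Scd1, the main desaturase of liver, had 6616 to 12455 CPM (median 9179) in chow reversal mice and 13403 to 28781 CPM (median 19353) in vehicle mice, without overlap (−1.20 ± 0.19, adjusted p = 1.22e-06). Its relative Scd2 fell by 1.55 (adjusted p = 0.000466), and Srebf1, which encodes the regulator of fat synthesis SREBP1, fell by 0.85 (adjusted p = 0.0015). Acss2, which makes acetyl-CoA from acetate and is known as a target of SREBP, rose to 275 to 483 CPM in chow reversal mice, against 55.3 to 181 CPM in vehicle mice (2.01 ± 0.27, adjusted p = 3.04e-08). Fatty acid synthase, Fasn, had 754 to 1656 CPM in chow reversal mice and 365 to 1614 CPM in vehicle mice and was not called (0.22 ± 0.38, adjusted p = 0.684).

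Among 25 genes of lipid droplets and fatty acid uptake, 9 fell and 4 rose (52% called, median −0.26), or 2 rose without vehicle replicate 7. Apoa4, an apolipoprotein that fatty livers express, had 272 to 475 CPM (median 405) in chow reversal mice and 1755 to 3336 CPM (median 2377) in vehicle mice (−2.66 ± 0.36, adjusted p = 3.44e-08). Lpl, the lipase that frees fatty acids from lipoproteins, had 26.3 to 41.8 CPM in chow reversal mice and 116 to 173 CPM in vehicle mice (−2.14 ± 0.37, adjusted p = 6.17e-06). In neither gene did the groups overlap. The droplet coat gene Plin4 fell by 1.61 (adjusted p = 9.39e-05), the fatty acid carrier Cd36 by 0.78 (adjusted p = 0.00049) and Plin2, the coat of liver fat droplets, by 0.45 (adjusted p = 0.032). Cidec, which fuses droplets, had 15.6 to 58.1 CPM in chow reversal mice against 65.5 to 118 CPM in vehicle mice (−1.19 ± 0.39, adjusted p = 0.0139). Its relative Cidea was not called, with 11.8 to 39.1 CPM in chow reversal and 11.2 to 29.4 CPM in vehicle mice (0.51 ± 0.40, adjusted p = 0.339). Fabp5, a fatty acid binding protein, was higher in chow reversal mice at 16.3 to 75.6 CPM (median 34.0) against 12.3 to 21.9 CPM (median 19.2) in vehicle mice (1.16 ± 0.33, adjusted p = 0.00529), and 6 of 7 mice exceeded the vehicle range. Of the 4 that rose, 2 to 4 passed when 1 library was left out and 1 passed under library totals. Fatty acid oxidation was near the background, with 5 of 27 genes higher and 3 lower (29.6% called), and 3 higher without vehicle replicate 7. Cyp4a14, a fatty acid hydroxylase and PPARα target, rose by 1.34 ± 0.35 (adjusted p = 0.00197) and Ucp2, a mitochondrial carrier, fell by 1.12 (adjusted p = 2.64e-06).

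Genes of amino acid breakdown and the urea cycle rose in 23 of 31 cases and fell in 0 (74.2% called, median 0.70), and 19 of them passed higher under library totals. Gnmt, which uses up methyl groups from S-adenosylmethionine, had 2084 to 2972 CPM (median 2519.9) in chow reversal mice and 544 to 1097 CPM (median 706) in vehicle mice, without overlap (1.73 ± 0.16, adjusted p = 9.97e-14). Cth, which makes cysteine, rose by 1.64 ± 0.19 (adjusted p = 3.9e-10). Of the urea cycle, Asl had 674 to 1069.8 CPM in chow reversal mice against 236 to 421 CPM in vehicle mice (1.30 ± 0.17, adjusted p = 2.41e-08), and Ass1 and Arg1 rose by 0.88 and 0.65. Hal, the first enzyme of histidine breakdown, rose by 1.22 ± 0.19 (adjusted p = 4.34e-07) and Gls2, the liver glutaminase, by 1.06 ± 0.14 (adjusted p = 1.13e-08). Hal, Gls2, Ass1 and Arg1 are expressed mainly around the portal vein. Of 17 periportal genes 10 rose and 2 fell (70.6% called, median 0.55), where 14.2% of all genes rose. Of 18 pericentral genes 6 were higher and 1 lower (38.9% called, near the 32.1% of all genes, median 0.20). The difference between these lists was not tested.

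Of 22 genes of hepatokines and secreted hepatocyte factors, 8 rose, 1 fell and 13 were not called (40.9% called, against 32.1% of all genes). Alb, serum albumin, had 70322 to 93439 CPM (median 79759) in chow reversal mice and 35745 to 47119.6 CPM (median 43619) in vehicle mice, without overlap (0.93 ± 0.11, adjusted p = 5.53e-10). Of the 12 hepatocyte markers, Alb among them, 9 rose and 0 fell, and their sum rose with the genes described here, as given above. Its part in the rises of single hepatocyte genes was not tested. Fetub, a liver-secreted protease inhibitor, rose by 1.27 ± 0.20 (adjusted p = 8.11e-07), Apom, an apolipoprotein of HDL, by 1.14 ± 0.23 (adjusted p = 6.43e-05), and Angptl8, which restrains lipoprotein lipase, by 1.48 ± 0.39 (adjusted p = 0.00214). Nlrp6, an inflammasome gene counted in the inflammation list, rose to 147 to 182 CPM in chow reversal mice, against 60.9 to 125 CPM in vehicle mice (0.96 ± 0.12, adjusted p = 1.56e-09). The transcription factor Hnf4a rose by 0.42 ± 0.12 (adjusted p = 0.00517) and Cyp2e1, a pericentral enzyme, by 0.64 ± 0.19 (adjusted p = 0.00844), but neither passed when libraries were scaled to their totals (adjusted p = 0.284 and 0.0947).

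**Figure D3:**
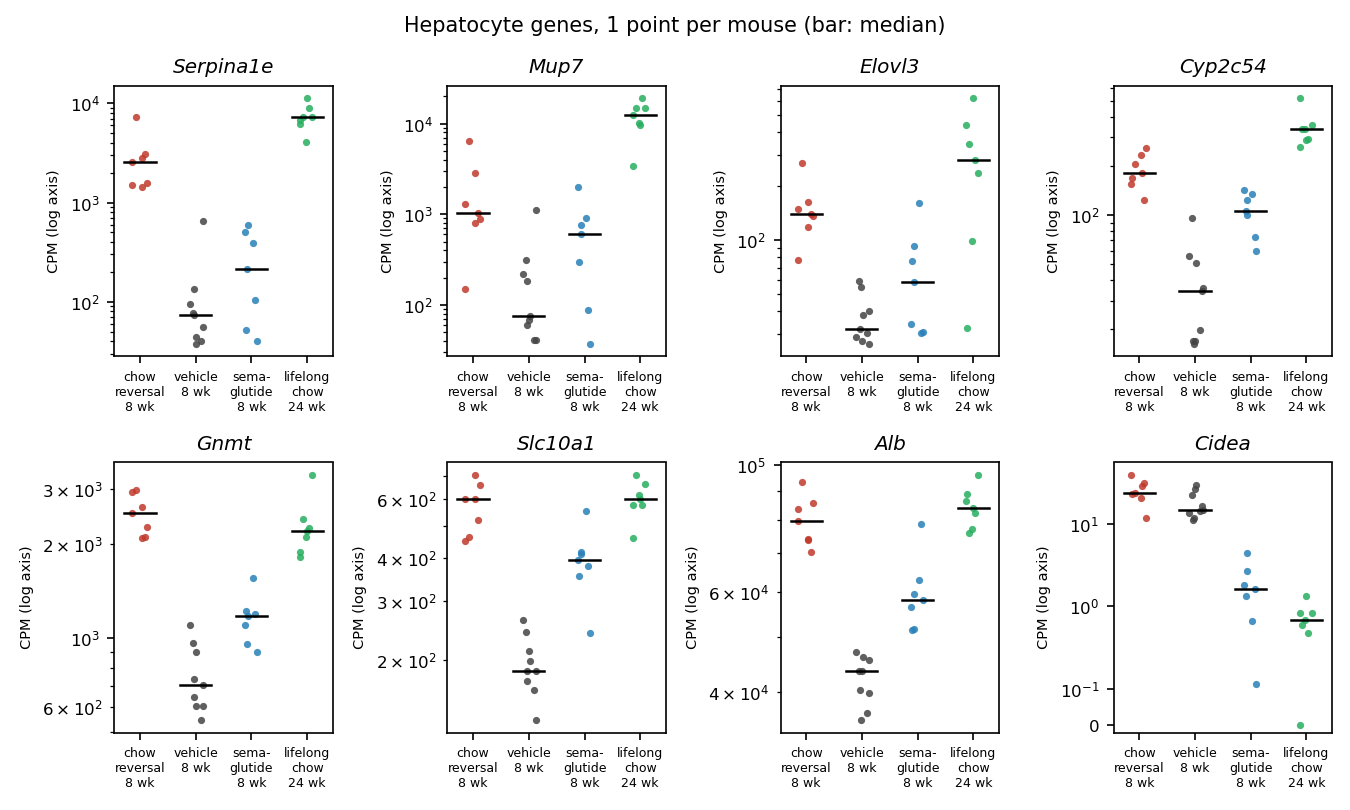
Levels in CPM (log axis; for Cidea linear below 0.1) of 8 genes expressed by hepatocytes, 1 point per mouse, with a bar at the median of chow reversal, vehicle and semaglutide mice at 8 weeks and of lifelong chow mice at 24 weeks. Gnmt, Slc10a1 and Alb lay apart in chow reversal and vehicle mice, Serpina1e and Mup7 spread over more than a decade within a group, and Cidea overlapped between chow reversal and vehicle mice.

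Genes that male mice express more than females under pulsed growth hormone formed the list with the next highest median: 12 of 20 rose and 1 fell (65% called, median 1.12). Several belong to families of near-identical copies (Mup, Serpina1, Cyp2c, Cyp2d, Cyp4a), between which reads can be split, so that single members are uncertain. Serpina1e, a copy of the α1-antitrypsin gene, had 1420.3 to 7347 CPM (median 2563) in chow reversal mice and 37.6 to 648 CPM (median 72.8) in vehicle mice, without overlap (4.43 ± 0.74, adjusted p = 2.47e-06). Hsd3b5, a steroid reductase of male liver, had 0.988 to 43.3 CPM (median 6.80) in chow reversal mice and 0 to 1.12 CPM (median 0.181) in vehicle mice (5.30 ± 1.26, adjusted p = 0.00072), and 6 of 7 exceeded the vehicle range. Mup7, a major urinary protein, had 149 to 6366 CPM in chow reversal mice and 40.9 to 1120.2 CPM in vehicle mice, with overlap (3.02 ± 0.92, adjusted p = 0.00823). Mup20, the darcin pheromone, was the member that fell, to 4581 to 8370.5 CPM in chow reversal mice, against 7933 to 17787 CPM in vehicle mice (−0.81 ± 0.29, adjusted p = 0.0238). Elovl3, a fatty acid elongase, had 77.3 to 270.1 CPM in chow reversal mice and 26.3 to 58.8 CPM in vehicle mice (2.01 ± 0.44, adjusted p = 0.000268). Of 15 female-biased genes measured 4 fell and 1 rose (33.3% called, near the 32.1% of all genes, median −0.21). Sult1e1, the estrogen sulfotransferase, was among those that fell (−3.19 ± 0.64, adjusted p = 6.39e-05). In the growth hormone and IGF axis 4 of 15 genes rose and 2 fell (40% called, median 0.08). Among them the hormone-dependent Igf1, which carries growth hormone's action, rose by 0.58 ± 0.12 (adjusted p = 0.000125), and Igfals, its carrier subunit in blood, by 1.04 ± 0.18 (adjusted p = 8.13e-06). In drug metabolism, 12 of 38 genes rose and 4 fell (42.1% called), among them Cyp2c54 (2.31 ± 0.39, adjusted p = 3.57e-06) and Gstm3, a glutathione transferase (−1.60 ± 0.33, adjusted p = 0.000124).

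Collagen genes fell, 15 of 20 measured (against 17.9% of all genes), with a median of −1.06. Col1a1, a chain of the main collagen of scars, had 16.8 to 34.2 CPM (median 26.7) in chow reversal mice and 57.9 to 129 CPM (median 93.8) in vehicle mice, without overlap (−1.81 ± 0.33, adjusted p = 1.53e-05). Its partner Col1a2 fell by 1.64 (adjusted p = 1.89e-07). Col3a1, the other fibrillar collagen of early scars, had 32.6 to 61.2 CPM in chow reversal mice and 104 to 263 CPM in vehicle mice (−1.92 ± 0.28, adjusted p = 1.26e-07). Of the basement membrane, Col4a1 fell by 1.18 (adjusted p = 7.04e-06). Col18a1, Col5a3 and Col27a1 rose instead, Col18a1, which hepatocytes express, to 1003 to 1285 CPM in chow reversal mice, against 756 to 1081 CPM in vehicle mice (0.45 ± 0.13, adjusted p = 0.00528), but none of the collagens passed higher under library totals.

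Of 41 other matrix and remodelling genes, 30 fell and 1 rose (75.6% called, median −1.0). Timp1, an inhibitor of matrix proteases and a marker of fibrosis, had 0.308 to 1.54 CPM (median 0.720) in chow reversal mice and 2.52 to 6.09 CPM (median 4.11) in vehicle mice, without overlap (−2.12 ± 0.40, adjusted p = 2.93e-05). Its relative Timp2 fell as well (−0.73 ± 0.21, adjusted p = 0.00626), and the collagenase Mmp13 fell by 1.55 (adjusted p = 0.00183) with overlapping groups, 0.467 to 1.44 CPM in chow reversal and 0.535 to 4.54 CPM in vehicle mice. The crosslinking enzymes Lox and Loxl2 fell by 2.21 (adjusted p = 1.82e-05) and 1.69 (adjusted p = 9.31e-08). Tnc, a matrix protein of wound repair, had 0.864 to 2.52 CPM in chow reversal mice and 4.35 to 8.16 CPM in vehicle mice (−1.79 ± 0.27, adjusted p = 4.75e-07). Vtn, the hepatocyte product vitronectin, was the gene that rose (0.63 ± 0.14, adjusted p = 0.000387). Stellate cell and myofibroblast genes fell in 17 of 29 cases and rose in 0 (median −0.62). Acta2, the smooth muscle actin of myofibroblasts, had 2.72 to 4.86 CPM in chow reversal mice and 3.37 to 8.99 CPM in vehicle mice (−0.83 ± 0.26, adjusted p = 0.0121). It overlapped between groups, whereas Rgs5, a pericyte gene, did not, with 17.1 to 22.5 CPM in chow reversal and 36.7 to 58.3 CPM in vehicle mice (−1.24 ± 0.18, adjusted p = 1.61e-07). Lrat, the enzyme that stores vitamin A in stellate cells, fell as well (−0.85 ± 0.22, adjusted p = 0.0018). For markers of other non-parenchymal cells, the share of all genes that fell was 17.9%. Sinusoidal endothelial markers were lower in 5 of 12 (41.7%), or 3 without vehicle replicate 7. They summed to 249 to 452 CPM in chow reversal and 221 to 478 CPM in vehicle mice. Portal and capillary endothelial markers were lower in 3 of 8 (37.5%), at 95.2 to 148 CPM in chow reversal and 92.5 to 175 CPM in vehicle mice. Cholangiocyte markers were lower in 1 of 10 (10%), under the share of all genes, at 106 to 143 CPM in chow reversal and 115 to 199 CPM in vehicle mice. The part of these cells in the matrix result was not tested.

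**Figure D4:**
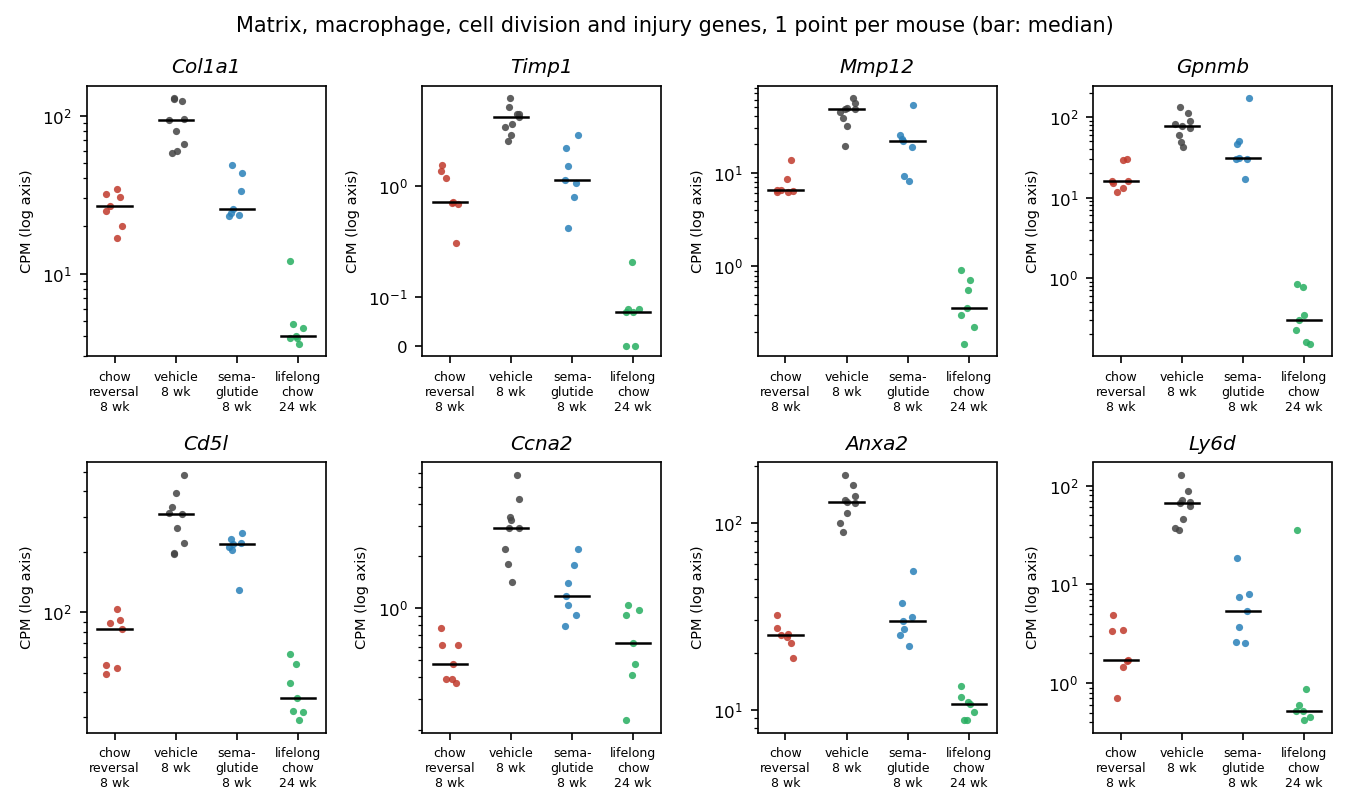
Levels in CPM (log axis; for Timp1 linear below 0.1) of genes of matrix (Col1a1, Timp1), macrophages (Mmp12, Gpnmb, Cd5l), cell division (Ccna2) and hepatocyte injury (Anxa2, Ly6d), 1 point per mouse, with a bar at the median of chow reversal, vehicle and semaglutide mice at 8 weeks and of lifelong chow mice at 24 weeks. In all 8 genes the chow reversal mice lay below every vehicle mouse; the single high lifelong chow point of Ly6d is replicate 5.

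Macrophage genes fell broadly. Of 22 genes of lipid-associated macrophages, the cells that gather around dying fat-laden hepatocytes, 18 fell and 1 rose (86.4% called, median −1.27). Gpnmb, a membrane glycoprotein of these cells, had 11.7 to 29.9 CPM (median 16.2) in chow reversal mice and 43.1 to 135 CPM (median 77.4) in vehicle mice (−2.10 ± 0.43, adjusted p = 0.000103). Mmp12, the macrophage elastase, had 6.23 to 13.6 CPM in chow reversal mice and 19.4 to 61.9 CPM in vehicle mice (−2.50 ± 0.40, adjusted p = 1.07e-06). Trem2, a lipid receptor that defines them, fell by 1.81 (adjusted p = 0.000671), the lysosomal Cd68 by 1.39 (adjusted p = 5.72e-06) and Lgals3, galectin 3, by 1.78 (adjusted p = 9.67e-06). In each of these genes all 7 chow reversal mice were below all 9 vehicle mice. Fabp5, described among the lipid genes, was the member that rose.

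Genes of the Kupffer cell list fell in 15 of 22 cases and rose in 0 (68.2% called, median −1.07). The list also holds genes that macrophages in general express. Cd5l, a secreted inhibitor of apoptosis, had 49.1 to 104 CPM (median 82.9) in chow reversal mice and 196 to 484 CPM (median 309) in vehicle mice (−2.01 ± 0.26, adjusted p = 7.68e-09). The pan-macrophage gene Adgre1, which encodes F4/80, fell by 1.82 (adjusted p = 8.05e-06), the efferocytosis receptor Axl by 1.41 (adjusted p = 3.86e-09) and the complement receptor Vsig4 by 1.22 (adjusted p = 0.000767). The defining Kupffer gene Clec4f was not called, at 46.5 to 116 CPM in chow reversal mice and 66.1 to 162 CPM in vehicle mice (−0.55 ± 0.26, adjusted p = 0.0914). Timd4, of resident cells from the embryo, and Marco, a scavenger receptor, were not called either (adjusted p = 0.101 and 0.299), with a wide spread in vehicle mice (0.356 to 15 and 0.152 to 38.8 CPM).

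Genes of recruitment and signalling fell alongside them. Of 29 chemokine and recruitment genes 17 fell and 1 rose (62.1% called, median −0.83). Ccl2, which draws in monocytes, had 1.05 to 1.66 CPM in chow reversal mice and 2.34 to 6.36 CPM in vehicle mice (−1.68 ± 0.33, adjusted p = 5.03e-05), and its receptor Ccr2 fell by 1.47 (adjusted p = 8.22e-05). Ccl6, a chemokine of myeloid cells, had 4.92 to 8.56 CPM in chow reversal mice and 21.4 to 40.1 CPM in vehicle mice (−2.06 ± 0.32, adjusted p = 7.91e-07). None of the 3 overlapped between groups. Of 31 inflammation genes, 19 fell and 3 rose (71% called, median −0.65). They included the Toll-like receptor genes Tlr7 (−2.0 ± 0.29, adjusted p = 1.83e-07), Tlr2 (−1.28 ± 0.19, adjusted p = 3.93e-07) and Tlr8 (−2.56 ± 0.51, adjusted p = 6.85e-05), the lipopolysaccharide receptor Cd14 (−1.84 ± 0.31, adjusted p = 4.47e-06) and the cytokine Il1b (−1.15 ± 0.36, adjusted p = 0.00937). Beside Nlrp6, the members that rose were Il18, a cytokine, and Il6ra, the interleukin 6 receptor.

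Genes of antigen presentation and of the interferon response fell too. Of 12 class II genes 8 fell and 0 rose (median −0.82), among them Ciita, the master regulator of the class, with 2.41 to 3.83 CPM in chow reversal mice and 4.71 to 8.69 CPM in vehicle mice (−1.11 ± 0.23, adjusted p = 0.000104). Of 24 interferon-stimulated genes 14 fell and 1 rose (median −0.45), among them Ifit2, which restrains translation (log2 fold change −1.44, adjusted p = 5.71e-06), and Oasl2, of the antiviral synthetase family (−1.13, adjusted p = 5.97e-06). Of 24 genes of T, NK and B cells 0 passed in edgeR, where 32.1% of all genes did, and the median was −0.20. At an unadjusted p under 0.05, 1 was higher and 1 lower. Cd8a, of cytotoxic T cells, had 0.470 to 1.87 CPM in chow reversal mice and 0.711 to 3.89 CPM in vehicle mice (−0.63 ± 0.39, adjusted p = 0.209). Most of these genes were near 1 CPM, a level at which smaller changes can be missed. The heavy chain gene of the mucosal antibody, Igha, rose by contrast to 3.19 to 12.0 CPM in chow reversal mice, against 0.164 to 1.72 CPM in vehicle mice (3.09 ± 0.53, adjusted p = 5.1e-06). Acute phase genes moved no more than the background, with 2 of 25 higher and 4 lower (24% called). Lcn2, an iron-binding protein of inflamed liver, was among those that fell, to 13.8 to 38.8 CPM in chow reversal mice, against 72.6 to 214 CPM in vehicle mice (−2.26 ± 0.70, adjusted p = 0.00992).

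Cell division genes fell in 23 of 27 cases (88.9% called, median −1.64). Ccna2, a cyclin of S and G2 phases, had 0.369 to 0.767 CPM (median 0.480) in chow reversal mice and 1.42 to 5.89 CPM (median 2.92) in vehicle mice (−2.56 ± 0.31, adjusted p = 1.78e-09). Top2a, which untangles replicated DNA, fell by 2.26 (adjusted p = 1.03e-08) and Mki67, which encodes the Ki-67 antigen, by 1.92 (adjusted p = 1.39e-07). Higher on the scale, the G1 cyclin Ccnd1 had 19.5 to 35.8 CPM in chow reversal mice and 72.5 to 128 CPM in vehicle mice (−1.72 ± 0.29, adjusted p = 3.78e-06). Cdkn1a, an inhibitor of the cycle that damaged cells express, moved the same way, at 3.52 to 7.80 CPM in chow reversal and 14.9 to 42.1 CPM in vehicle mice (−2.32 ± 0.44, adjusted p = 2.77e-05). None of these genes overlapped between groups. Tk1, a thymidine kinase, was the member that rose, with 26 to 36.5 CPM in chow reversal mice and 9.35 to 22.2 CPM in vehicle mice (1.07 ± 0.20, adjusted p = 2.19e-05).

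Of 25 genes of injured hepatocytes and ductular cells 9 fell and 0 rose (36% called, all lower, against 17.9% of all genes lower), with a median of −0.78. Anxa2, a membrane-binding protein, had 18.9 to 31.9 CPM (median 25) in chow reversal mice and 88.6 to 180.5 CPM (median 129) in vehicle mice (−2.37 ± 0.25, adjusted p = 6.38e-12). Ly6d, a surface antigen of stressed hepatocytes in mice, had 0.700 to 4.88 CPM (median 1.73) in chow reversal mice and 35.3 to 129 CPM (median 66.7) in vehicle mice (−4.73 ± 0.70, adjusted p = 2.73e-07). Both lay apart between groups. The keratin Krt8, whose protein gathers in ballooned cells, fell by 0.83 (adjusted p = 0.00222), and Afp, the fetal α-fetoprotein, fell by 1.40 (adjusted p = 0.00216). The ductular keratins Krt7 and Krt19 were not called (adjusted p = 0.45 and 0.32). The stress lists were mixed, where 32.1% of all genes were called. Of 25 genes of the unfolded protein and integrated stress response 4 rose and 5 fell (36% called). Of 23 genes of oxidative stress 4 rose and 6 fell (43.5% called). Among their members, Atf4, the effector of the integrated stress response, rose by 0.75 ± 0.13 (adjusted p = 8.64e-06). Atf3, a stress-induced factor, fell by 1.77 (adjusted p = 5.3e-06) and the heme oxygenase Hmox1 by 0.87 (adjusted p = 0.00184). Of 25 lysosomal genes 13 fell and 0 rose (52% called, all lower, against 17.9% of all genes lower), with a median of −0.29.

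Outside the lists, and leaving aside Zc3h11a, whose gene models overlap, the largest falls were led by Sprr1a, a protein of injured epithelia and nerves, with 0 to 0.123 CPM in chow reversal mice and 1.97 to 9.76 CPM in vehicle mice (−6.12 ± 0.68, adjusted p = 6.36e-11). Ephb2, an ephrin receptor, had 0.156 to 1.85 CPM (median 0.862) in chow reversal mice and 9.91 to 32.7 CPM (median 23.4) in vehicle mice (−4.27 ± 0.42, adjusted p = 9.87e-13). Smpd3, a neutral sphingomyelinase, fell by 3.29 (adjusted p = 2.24e-07). Shc2, Gipc2, Ttc39a and Cenpf fell by 3.00 to 3.39, and Chil3, a chitinase-like protein of alternatively activated macrophages, by 3.65 (adjusted p = 0.00932). Tekt5 was at or under 0.123 CPM in all chow reversal mice and overlapped the vehicle mice, and its call was lost without vehicle replicate 2 (adjusted p = 0.125) and without each of chow reversal replicates 4 to 7 (adjusted p of 0.057 to 0.0604). Among the rises, Slc13a2, a citrate transporter, had 0.783 to 4.43 CPM in chow reversal mice and 0 to 0.295 CPM in vehicle mice (4.35 ± 0.55, adjusted p = 4.55e-09). Adgrf1, an adhesion receptor, and Nfe2, a transcription factor of blood cells, rose by 3.24 and 3.05, and the unnamed transcript AC127342.1 by 3.52. The zinc finger gene Zc3h11a had 2 overlapping gene models, of which 1 was at 0 in all chow reversal mice and in 4 of 9 vehicle mice. Summed over both models its level was 57.8 to 77.7 CPM in chow reversal mice and 56.6 to 65.9 CPM in vehicle mice, so the fall of that model is uncertain. Glp1r, the receptor of semaglutide, was too low to be tested, with a count in 5 of 7 chow reversal libraries (at most 3) and in 8 of 9 vehicle libraries (at most 6).

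Chow reversal was also set against semaglutide on the MASH diet at 8 weeks. These values share the chow reversal mice with those above. Of all genes 918 (6.16%) differed, 393 higher (2.64%) and 525 lower (3.52%) with chow reversal. All 25 genes of cholesterol synthesis and uptake were higher with chow reversal than with semaglutide (median 2.16). Sqle averaged 103 ± 16.6 CPM in chow reversal mice and 1.13 ± 0.528 CPM in semaglutide mice (SD, n = 7 each; 6.51 ± 0.43 on the log2 scale, adjusted p = 1.21e-20). Abcg5 was lower, at 60.6 ± 8.48 CPM in chow reversal mice and 276 ± 35.4 CPM in semaglutide mice (−2.18 ± 0.19, adjusted p = 7.77e-15). Amino acid genes were higher in 8 of 31 cases and lower in 0. Semaglutide mice themselves, against the same vehicle mice, had 334 genes higher (2.24%) and 523 lower (3.51%), among them 1 of the 25 cholesterol genes higher and 15 of 20 collagens lower.

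For collagens, 0 of 20 genes passed in edgeR between chow reversal and semaglutide mice (median −0.18; 2 higher and 1 lower at an unadjusted p under 0.05), and of 41 matrix genes 1 was lower. Col1a1 averaged 26.4 ± 6.34 CPM in chow reversal mice and 31.7 ± 10.6 CPM in semaglutide mice, a difference of −0.26 ± 0.34 (adjusted p = 0.67), whose size is less than its error. That does not show that the levels were the same. Macrophage genes were lower with chow reversal in 9 of 22 of the lipid-associated list (1 higher) and in 8 of 22 of the Kupffer list, as were 8 of 24 interferon-stimulated genes and 8 of 27 of cell division. Cd5l averaged 74.7 ± 21.9 CPM in chow reversal mice and 209.5 ± 37.9 CPM in semaglutide mice (−1.49 ± 0.26, adjusted p = 5.33e-05). Cidea showed the opposite, with 25.4 ± 8.65 CPM in chow reversal mice and 1.80 ± 1.41 CPM in semaglutide mice (3.85 ± 0.51, adjusted p = 4.45e-08). Of the genes lower than with semaglutide, the largest difference was that of Lepr, the leptin receptor, at 3.14 ± 0.921 CPM in chow reversal mice and 26.3 ± 6.26 CPM in semaglutide mice (−3.05 ± 0.39, adjusted p = 1.93e-08). It was followed by the female-biased Cyp2b9 (−2.71) and Cyp2b13 (−2.67), the antisense transcript Dio3os (−2.50) and the glucose transporter Slc2a4 (−2.32).

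Set against lifelong chow, the chow reversal livers differed in 1263 genes (8.47%), 1076 of them higher (7.22%) and 187 lower (1.25%). The lifelong chow mice were killed at 24 weeks, so time and age cannot be told apart from diet history here. Without lifelong chow replicate 5 the counts were 1307 higher and 174 lower. Of the 25 genes of cholesterol synthesis and uptake 0 passed in edgeR (median 0.01; 1 higher and 0 lower at an unadjusted p under 0.05), or 1 without that mouse. Sqle averaged 103 ± 16.6 CPM in chow reversal mice and 129 ± 46.8 CPM in lifelong chow mice (−0.32 ± 0.31, adjusted p = 0.641). Of the 31 amino acid genes 0 passed (median −0.06; 2 higher and 1 lower at an unadjusted p under 0.05).

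Many matrix and macrophage genes were higher than in lifelong chow. Of 20 collagens 10 were higher and 0 lower (median 0.88), of 41 matrix genes 21 higher and 1 lower (median 1.11), and of 22 genes of lipid-associated macrophages 13 higher and 0 lower (median 1.24). Without replicate 5 these medians were 0.96, 1.36 and 1.56. The matrix gene that was lower, Postn, a matricellular protein, was at −1.23 (adjusted p = 0.00767) with replicate 5 and at 0.049 (adjusted p = 0.951) without it, when 26 matrix genes were higher and 0 lower. Col1a1 averaged 26.4 ± 6.34 CPM in chow reversal mice and 5.26 ± 3.04 CPM in lifelong chow mice (SD, n = 7 each; 2.32 ± 0.37, adjusted p = 5.17e-06). Gpnmb averaged 18.8 ± 7.51 CPM in chow reversal mice and 0.400 ± 0.289 CPM in lifelong chow mice (5.45 ± 0.63, adjusted p = 2.66e-09). Of 12 class II genes 8 were higher (median 1.67) and of 24 lymphocyte genes 8 were higher (median 1.14), Cd8a by 2.59 ± 0.53 (adjusted p = 0.000378). Cell division genes differed in 1 of 27 cases, Mki67 being 1.03 ± 0.32 higher (adjusted p = 0.0256). Without replicate 5 it was 3 of 27, with Mki67 higher by 1.47 (adjusted p = 0.000781), Top2a by 1.36 (adjusted p = 0.00268) and Aurkb by 1.83 (adjusted p = 0.00662).

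The droplet genes Cidea and Cidec were far above lifelong chow, with Cidea at 25.4 ± 8.65 CPM in chow reversal mice and 0.676 ± 0.402 CPM in lifelong chow mice (5.21 ± 0.58, adjusted p = 6.41e-10) and Cidec at 39.7 ± 17 CPM in chow reversal mice and 3.02 ± 1.16 CPM in lifelong chow mice (3.70 ± 0.47, adjusted p = 3.67e-08). Male-biased genes were lower than in lifelong chow in 6 of 20 cases and higher in 0 (median −1.07). Hsd3b5 averaged 11.8 ± 14.9 CPM in chow reversal mice and 136 ± 52.7 CPM in lifelong chow mice (−3.54 ± 1.04, adjusted p = 0.0179). Some of the largest falls rested on lifelong chow replicate 5: Chil3 fell by 6.07 with it and differed by 0.57 without it (adjusted p = 0.868), and Cyp2c69 fell by 5.35 with it and by 1.00, uncalled, without it (adjusted p = 0.557). The noncoding transcripts Meg3 and Rian of the imprinted Dlk1-Dio3 region fell by 5.54 and 5.46 with replicate 5 and by 2.66 (adjusted p = 1.14e-06) and 2.47 (adjusted p = 8.21e-05) without it.

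**Figure D5:**
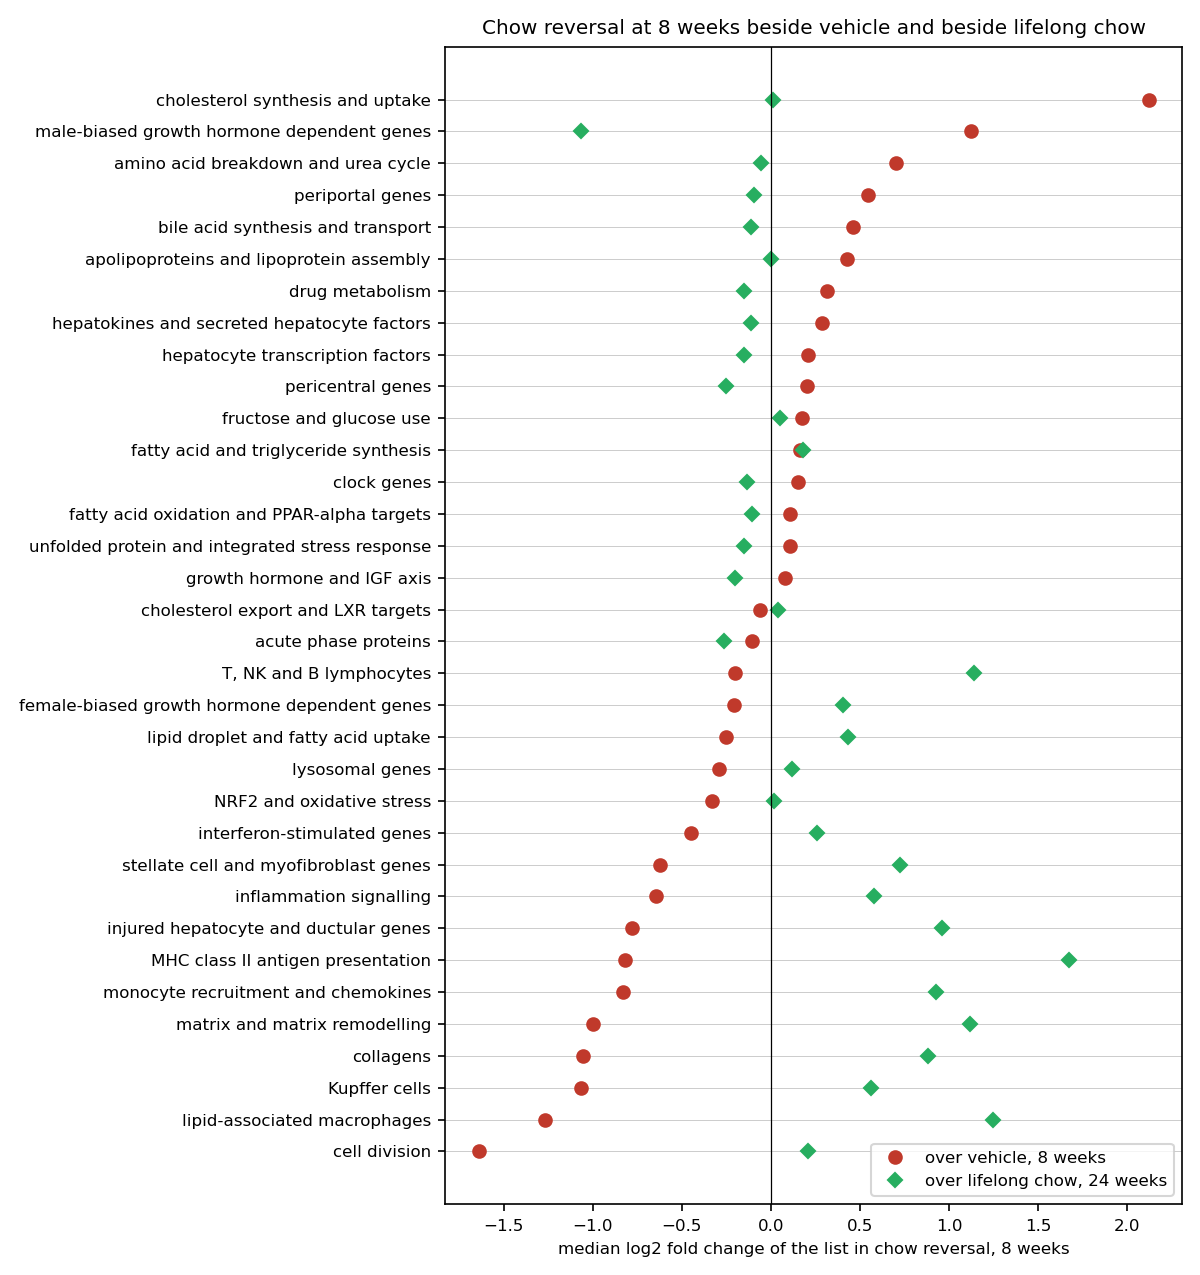
Median log2 fold change of each gene list in chow reversal mice at 8 weeks over vehicle mice at 8 weeks (circles) and over lifelong chow mice at 24 weeks (diamonds). Cholesterol synthesis and uptake lay at 2.12 over vehicle and 0.01 over lifelong chow, while collagens lay at −1.06 and 0.88 and lipid-associated macrophages at −1.27 and 1.24.

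Finally, the effect at 8 weeks was set against that at the later times, in other mice. At 16 weeks 1797 genes were higher (12.1%) and 2410 lower (16.2%) with chow reversal than with vehicle, and at 24 weeks 2530 were higher (17%) and 2849 lower (19.1%). The difference between the effect at 16 weeks and that at 8 weeks passed in 0 of 14904 genes in edgeR and in 1 in DESeq2, with 364 genes higher and 322 lower at an unadjusted p under 0.05. The median of the cholesterol list was 2.12, 2.15 and 2.16 at 8, 16 and 24 weeks, that of collagens −1.06, −0.96 and −1.25, and that of lipid-associated macrophages −1.27, −1.47 and −1.90. For the lymphocyte list it was −0.20, −0.52 and −1.0, with 0, 4 and 12 of 24 genes lower. Gene by gene, 0 genes of these 4 lists passed for the difference between 16 and 8 weeks or between 24 and 8 weeks, and the medians themselves were not tested against each other. At 24 weeks chow reversal replicate 7 stood apart, at 13.8 on the first component, with the other 7 mice between −33.7 and −10.5. Without it 3056 genes were higher and 3061 lower with chow reversal at 24 weeks, and the 24-week medians were 2.27 for cholesterol, −1.37 for collagens, −2.02 for lipid-associated macrophages and −1.22 for lymphocytes, with 13 lymphocyte genes lower.

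Between 24 and 8 weeks the effect differed in 32 genes (0.215%), 31 of them with a lower value at 24 weeks (0.208%) and 1 with a higher one (0.00671%). Without chow reversal replicate 7 of 24 weeks it differed in 122 genes, 111 with a lower value at 24 weeks and 11 with a higher one, and these held all 32. Of the 12 class II genes 5 were then lower at 24 weeks, against 1 with that mouse. So were 3 of 22 genes of the Kupffer list, 2 of 29 recruitment genes and 1 of 22 lipid-associated macrophage genes, Lgmn, a lysosomal protease. With that mouse 0 genes of each of these 3 lists were. Of 24 interferon-stimulated genes 3 were lower, against 2 with that mouse. Of the 23 genes of the list of oxidative stress and the transcription factor NRF2, 3 were among the 32 (Nqo1, Pgd and Cbr3). Cbr3, a carbonyl reductase, averaged 1.47 ± 0.421 CPM in chow reversal mice (n = 7) and 5.16 ± 1.83 CPM in vehicle mice (n = 9) at 8 weeks, and 2.35 ± 2.7 CPM (n = 8) and 97.5 ± 86.6 CPM (n = 7) at 24 weeks (difference −3.58 ± 0.65, adjusted p = 0.00141). The glutathione transferase Gsta1 averaged 17.4 ± 7.17 and 57.5 ± 18.7 CPM in chow reversal and vehicle mice at 8 weeks, and 22.3 ± 16.3 and 441 ± 318 CPM at 24 weeks (difference −2.59 ± 0.60, adjusted p = 0.0330). In both genes the chow reversal levels at the 2 times were close and the vehicle level at 24 weeks was high and widely spread. Cyp2a4, a steroid hydroxylase, showed this too, with 4.98 ± 5.74 and 17.1 ± 11.8 CPM in chow reversal and vehicle mice at 8 weeks, and 4.32 ± 6.39 and 613 ± 582 CPM at 24 weeks (difference −5.42 ± 1.12, adjusted p = 0.00891). Nebl, an actin-binding protein, was the gene with the opposite sign, at 2.11 ± 0.578 and 2.06 ± 0.898 CPM in chow reversal and vehicle mice at 8 weeks and 3.98 ± 0.825 and 1.33 ± 0.443 CPM at 24 weeks (difference 1.54 ± 0.37, adjusted p = 0.0444).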

How the data were processed

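Liver RNA (left lateral lobe) was made into NEBNext Ultra II Directional libraries and sequenced on a NextSeq 500. Per the submitters' processing notes, the authors aligned reads to GRCm38 with STAR 2.7.3a and quantified them with Salmon 1.2.0, with FastQC 0.11.9 and Picard for quality; DESeq2 is named without a version. The deposited table holds estimated counts per gene for 55487 genes and 77 libraries, of which 0 columns were left unused. The annotation release and strand setting are not given in the sources used here, so overlapping and antisense genes are uncertain.

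Estimated counts were rounded to whole numbers. In R 4.3.3, edgeR 4.0.16 (filterByExpr with the groups, then TMM) fitted a single quasi-likelihood model to all 10 groups. It had 67 residual degrees of freedom, and its common dispersion came to 0.0660. Comparisons were contrasts within this model, with Benjamini-Hochberg adjustment over 14904 genes and a threshold of 0.05. CPM are TMM-scaled and are not scaled by length, so they are compared within a gene only. Standard errors are of the log2 fold change. Labels give each mouse its own number, so replicates are separate animals. No 2 libraries of a group agreed within sampling noise (lowest chi-square per degree of freedom 11.5 in chow reversal and 10.9 in vehicle mice).

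The 35 pathway and 11 marker lists held 888 distinct genes, 827 of them tested. The members and lists were chosen with earlier results of these data known. Named genes are, by rule, up to 5 members of each pathway list with the smallest p, the 12 largest rises and 12 largest falls at 8 weeks, the 5 largest in each direction of the other 4 contrasts (average log2 CPM above 0, without predicted genes, pseudogenes or unnamed identifiers), and the genes Timp1, Timp2, Mmp13, Col1a1, Acta2 and Glp1r. Other list members named complete a count or were chosen after their values were seen. A few list genes enter the counts and are not reported by name. Sequences are from RefSeq (GRCm38.p6).

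On simulated data with these depths and spread (14888 genes), the comparison recovered 28 of 67 genes changed 1.5-fold (41.8%), 51 of 67 changed 2-fold (76.1%) and 66 of 66 changed 4-fold, with 3 false calls among 14688 unchanged genes. Only genes with an average log2 CPM above 0 were changed, so genes with lower counts were not tried. Far fewer genes were changed than were called in the real comparison, so its recovery rates can differ from these. As many genes were set to rise as to fall, so false calls from an uneven split or from the scaling were not tried. Alternatives were DESeq2 1.42.0, RLE factors, library totals, no filter, only the groups compared, leaving out libraries of a second number series, a block on sets of library numbers, and leaving out each library. Leaving out lifelong chow replicate 5, and chow reversal replicate 7 of 24 weeks, was chosen after seeing the data.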

Additional observations from a re-analysis of the deposited data

Results flagged for a closer look

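In 20 of 418 gene and group pairs of named genes, 1 mouse lay far from the rest of its group by Dixon's test on log2(CPM + 0.1); chance alone flags about 1 in 20 (4.78% here). Values are CPM of that mouse, with the nearest other mouse of its group where given. Among chow reversal mice, replicate 2 was high for Ahsg (8930.0, next 6931) and Oas1a (6.61, next 4.09) and low for Cd36 (82.6, next 119.8) and Ephb2 (0.156, next 0.804). Replicate 5 was high for Mmp12 (13.6, next 8.53) and low for Meg3 (0.185, next 0.679) and Cyp2c69 (0, next 0.311), and replicate 6 was high for Herpud1 (728, next 530.2). Among vehicle mice, replicate 6 was high for the T and NK cell genes Gzmk (2.85, next 0.465), Nkg7 (5.66, next 1.42) and Pdcd1 (2.58, next 0.559) and for the ductular protease gene Mmp7 (15.4, next 3.05), and low for Cyp2f2 (221, next 368) and Sult1e1 (1.2, next 5.11). Replicate 4 was high for Serpina1e (648, next 134), Mcm2 (14.6, next 9.22) and Nebl (4.31, next 2.45). Replicate 9 was low for Ifit2 (3.17, next 5.57) and Smpd3 (10.1, next 16.8), and replicate 3 was low for Gstm3 (194, next 299).

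The effect of chow reversal differed between 24 and 8 weeks, by a test of the difference in edgeR, in 14 named genes or list members. On the log2 scale the effect at 24 weeks minus that at 8 weeks was −5.42 for Cyp2a4, −4.83 for the interleukin 36 gene Il1f9, −4.24 for Gpx2, −3.58 for Cbr3, −3.26 for Sfn, −2.59 for Gsta1, −2.41 for Cyp1a1, −1.70 for Rsad2, −1.59 for Oasl1, −1.44 for Nqo1, −1.32 for Gstm1, −1.2 for H2-DMa, −1.12 for Pgd and 1.54 for Nebl. All 14 also passed without chow reversal replicate 7 of 24 weeks. Of these, Cbr3, Gsta1 and H2-DMa had fallen at 8 weeks.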

How the results depend on the processing

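Chow reversal against vehicle gave 4032 to 6603 genes under the alternatives, and 3931 to 5057 without 1 library at a time, each within 1.5 times of 4782. Its split depended on scaling, with 667 higher and 5936 lower under library totals. Against semaglutide, 918 genes became 1527 under library totals (231 higher, 1296 lower), 603 without a filter and 2999 with only the groups compared; against lifelong chow, 1263 became 1481 without replicate 5 and 1528 under library totals (1442 higher, 86 lower). The difference between 24 and 8 weeks passed in 32 genes, in 59 with DESeq2, in 8 with only its groups, in 33 without vehicle replicate 7 and in 122 without chow reversal replicate 7 of 24 weeks, and that between 16 and 8 weeks in 0 and in 1 with DESeq2. The cause was not tested.

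Of 210 named genes, 179 kept direction and call in every alternative. In 4821 values, 44 calls were lost, 19 were gained and 12 signs turned, all of genes uncalled in the main comparison: Gzmk (−1.22 to 0.16 without 1 library, positive without vehicle replicate 6 alone), Nebl (−0.26 under library totals, −0.051 to 0.23 without 1 library) and Sfn (−0.16 to 0.13 without 1 library). The calls of Acot3, Cry2, Cyp4a31 and Tekt5 were lost in several fits without 1 library. Of 1104 list counts, 60 moved by over 1.5 times, under library totals and under other alternatives such as leaving out 1 library. They came from 48 results, of which 25 moved in no alternative. No paired analysis was possible because the labels give no replicate number that groups share; a block on sets of library numbers, which pairs no mice, gave 4597 genes. Depth limits genes near 1 CPM or less, and changes of 1.5-fold were often missed in simulation.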
